A study of Mus musculus with 9 samples.

Results

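Cells of the mouse line Neuro-2a (N2a) that express a hairpin RNA against Arf1, shArf1-1, were compared with N2a cells that express a hairpin against luciferase, shlucif, over all genes counted. The 6 libraries were chosen by their labels, as the 3 that name shArf1-1 and the 3 that name shlucif, out of 9 libraries in the series. The columns named shArf1 in the deposited table were taken as this hairpin and those named shArf2 as shArf1-2. The other 3 libraries carry a further hairpin against Arf1, shArf1-2, and serve here only to show where shArf1-1 differs from it. The series asks how loss of Arf1 changes lipid metabolism in neuronal cells. The shArf1-1 group is labelled with the genotype Arf1 knockdown and the shlucif group with luciferase knockdown, a control that carries a hairpin but should have no target in mouse cells. For all groups the labels give brain as tissue, neuroblast as cell type and no treatment, and the list of reagents names puromycin-selectable lentiviral vectors for all 3 hairpins.

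Polyadenylated RNA was sequenced, and the deposited table gives, for each of 21899 genes, read counts and FPKM, which are fragments scaled to gene length and to library size. The shlucif libraries 1, 2 and 3 held 13786986, 13381570 and 13631004 counts, and the shArf1-1 libraries held 12516668, 11182479 and 15594615. A gene was tested when edgeR's filterByExpr found enough counts in at least 1 group, which left 12448 genes. Counts were scaled between libraries with TMM, and one model of all 9 libraries supplied the contrast of shArf1-1 with shlucif. A gene is called higher or lower here when its p from the edgeR quasi-likelihood test, adjusted over all tested genes by Benjamini-Hochberg, is under 0.05. Log2 fold changes are shArf1-1 relative to shlucif, with their standard error (SE).

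N2a is a single tumour-derived line, so the data describe that line and not neurons of an animal. The labels do not say whether the 3 libraries of a group come from separate cultures or separate infections, so the p-values measure the spread between libraries, which may be technical. All pairs of libraries within a group differed by more than counting error. In a principal component analysis of log2 CPM (counts scaled to library size), the first component held 84.01% of the variance. The shlucif libraries lay between -78.94 and -75.62 on it and the shArf1-1 libraries between 41.72 and 42.71. Library 2 of shArf1-1 stood apart from the other two on the third component, which held 3.31% of the variance, at 21.14 against -13.36 and -16.97. The share of counts from mitochondrially encoded genes was 0.734%, 0.861% and 0.758% with shlucif and 1.31%, 1.03% and 1.08% with shArf1-1.

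Arf1 is a small GTPase that, when loaded with GTP, recruits the COPI coat, clathrin adaptors and lipid-modifying enzymes to Golgi membranes. Guanine nucleotide exchange factors such as Gbf1 switch it on, and GTPase-activating proteins switch it off. The same GTPase is known to act on lipid droplets and at contacts between lysosomes, mitochondria and the Golgi.

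The label was first checked against the targeted gene. Arf1 (ENSMUSG00000048076, chr11:59211412-59228270) was counted 9446, 8840 and 9333 times in the shlucif libraries and 3406, 2982 and 4137 times in the shArf1-1 libraries. Every shArf1-1 library lay below every shlucif library. Its level was 324 ± 6.72 FPKM with shlucif and 128 ± 1.73 FPKM with shArf1-1 (SD, n = 3 each). The log2 fold change was -1.39 (edgeR quasi-likelihood test with Benjamini-Hochberg adjustment, SE 0.052, adjusted p = 1.39e-22), a level 2.62-fold lower. Leaving out any 1 library gave values from -1.42 to -1.38.

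The 21-base target of the hairpin is shown because it sets which transcripts can pair with its guide strand. It is read from the study's list of hairpin oligonucleotides, and the guide is taken as its reverse complement. Capitals mark the seed of the guide, bases 2 to 8, which a small RNA mainly uses to find partly matched transcripts.
shArf1-1 target: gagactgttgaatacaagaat
shArf1-1 guide: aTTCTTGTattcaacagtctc
On the GRCm38 assembly the target lies at chr11:59213222-59213242 on the minus strand, in the coding part of exon 3 of 5 of Arf1. Among the annotated transcripts of GENCODE M21, 2 genes hold the whole target without a mismatch, Arf1 and the processed pseudogene AC127331.2, which is not in the deposited table. Reads from such copies may be divided between genes in a way the files do not show. No gene has a site with 1 or 2 mismatches, and 5 genes have one with 3 mismatches, of which 4 were tested.

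These 4 genes were Arf3, Ift81, Med22 and Trim23, and none of them fell. Med22, a subunit of the Mediator complex that links transcription factors to RNA polymerase II, was counted 1282, 1174 and 1185 times with shlucif and 2070, 1960 and 2764 times with shArf1-1. Its libraries did not overlap between the groups, and it rose by 0.90 (edgeR quasi-likelihood test with Benjamini-Hochberg adjustment, SE 0.059, adjusted p = 1.42e-15). Ift81 rose by 0.27 (the same edgeR test, adjusted p = 0.00773). In the same edgeR test Trim23 had a log2 fold change of 0.09 (adjusted p = 0.313). Arf3, at -0.05 (the same edgeR test, adjusted p = 0.388), was likewise short of the threshold, and it was 0.01 with total count scaling. A 7-base match to the seed, ACAAGAA, was present in the longest annotated 3′ UTR of 1688 of the 12359 tested genes that have one, or 13.7%. Genes with a match had a median log2 fold change of 0.06, with 37.7% higher and 32.2% lower. Those without a match had a median of -0.01, with 32.5% higher and 34.9% lower. The genes with a match also had longer UTRs, with a median of 2574 bases against 1027.

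Most tested genes differed between shArf1-1 and shlucif cells. An adjusted p under 0.05 was reached by 8406 of 12448 genes (67.5%), with 4124 higher (33.1%) and 4282 lower (34.4%) with shArf1-1. The balance turned with total count scaling, to 4620 higher and 3896 lower, with at least 10 counts in every library, to 3880 and 3783, and on log2(FPKM + 1), to 4545 and 3862, and on log2(FPKM + 0.1), to 4571 and 3859. In 8635 genes (69.4%) all libraries of one group lay above all of the other in scaled CPM. Most changes were small: the median size among called genes was 0.56 on the log2 scale, and the middle 50% of all tested genes lay between -0.43 and 0.37. A change of at least 2-fold was called in 1991 genes (16.0%), 655 of them higher (5.26%) and 1336 lower (10.7%). The larger changes were mostly falls, with 97 genes at least 4-fold higher and 615 at least 4-fold lower by fitted values. Of all tested genes, 157 had no count over a whole group, for which a fitted fold is not a measurement. Requiring at least 10 counts in every library, which drops such genes, left 1223 genes with a change of at least 2-fold, and limma on log2(FPKM + 1) called 801.

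**Figure D1:**
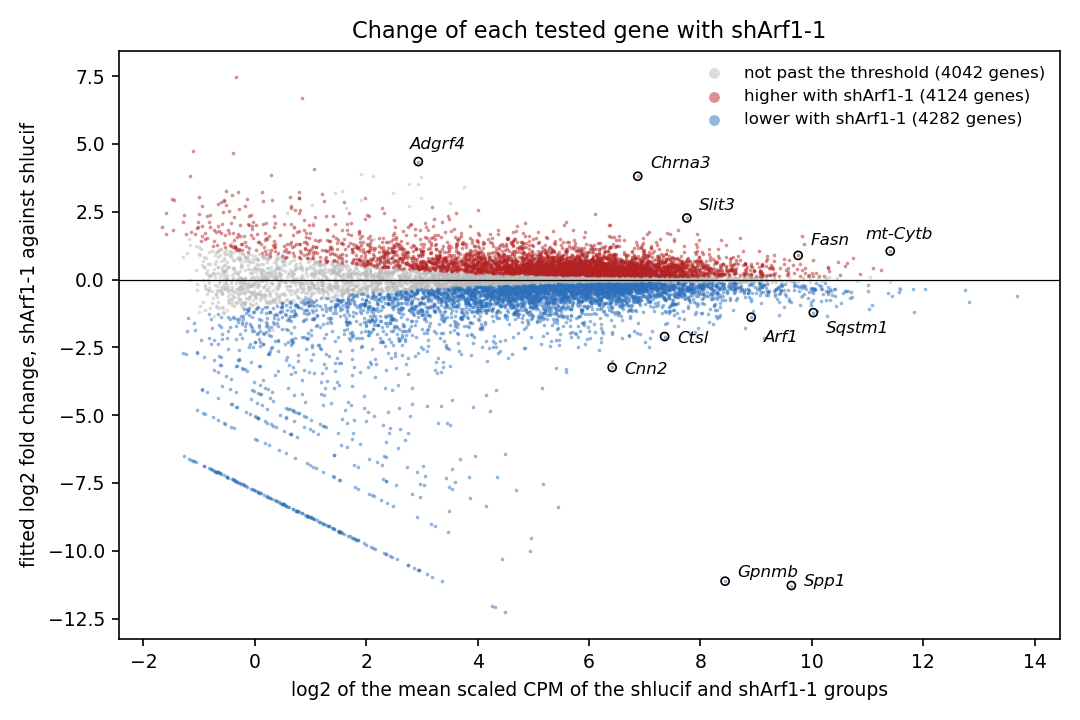
Fitted log2 fold change of each of the 12448 tested genes (vertical axis) against log2 of its mean TMM-scaled CPM in the shlucif and shArf1-1 groups (horizontal axis). Red points are the 4124 higher genes, blue points the 4282 lower genes and grey points the rest; the straight diagonal lines of blue points at lower left are genes with only a few counts in shArf1-1, whose fitted values are not measured folds, and Spp1 and Gpnmb stand alone at lower right.

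The neuroblast label was checked against 15 marker genes of the sympathetic neuroblast and neuron. Their summed level was 1628, 1614 and 1651 FPKM in the shlucif libraries and 1983, 2031 and 1800 FPKM in the shArf1-1 libraries. Their most abundant gene was Prph, a neuronal intermediate filament, with shlucif, and Tubb3, a neuronal tubulin, with shArf1-1. Not all defining markers were abundant. Th, the first enzyme of catecholamine synthesis, had 14, 13 and 14 counts with shlucif and 16, 17 and 12 with shArf1-1. Neuronal transcripts such as Prph and Tubb3 were thus abundant in both groups, and Th was scarce in both.

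Markers of microglia and macrophages were present in the shlucif libraries and nearly absent with shArf1-1. The 21 genes of that list summed to 240.2, 217.3 and 201.5 FPKM in the shlucif libraries and to 3.15, 2.55 and 3.19 FPKM in the shArf1-1 libraries. The groups lay far apart, by more than any spread within them. The most abundant gene of the list was Lyz2, a lysozyme of myeloid cells, with shlucif, and Tmem119 with shArf1-1. In the shArf1-1 libraries 13 of the 21 genes had no count. Of 17 tested members, 16 were lower and 1, Tmem119, was higher, against 34.4% lower and 33.1% higher among all tested genes. This and the other gene lists were chosen with earlier results of these data known, so such shares describe the chosen members only. The median of the list was -7.75 as fitted. It was -7.08 with the 9 tested members that had no shArf1-1 count set to the bound that 3 counts allow. With at least 10 counts required in every library only Tmem119 was left, at 1.09.

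Cd68, a lysosomal glycoprotein of macrophages, was at 60.6, 55.8 and 49.6 FPKM in the shlucif libraries and 0.127, 0.427 and 0.357 FPKM in the shArf1-1 libraries. All 3 shlucif libraries were high, and the log2 fold change was -7.53 (edgeR quasi-likelihood test with Benjamini-Hochberg adjustment, SE 0.19, adjusted p = 5.22e-27). Lyz2 fell from 1237, 1104 and 1078 counts to 4, 3 and 3 counts. Csf1r, the receptor for the macrophage growth factor, fell from 147, 134 and 111 counts to 2, 1 and 1, and Tyrobp, a signalling adaptor, from 207, 156 and 160 to 2, 0 and 2. None of these genes had a shArf1-1 library near a shlucif one. Ctss, a lysosomal protease, was counted 649, 564 and 573 times with shlucif and never with shArf1-1, at least 595-fold lower against a floor of 3 counts over the group. By the same floor Trem2, a lipid-sensing receptor, was at least 273-fold lower, Fcer1g, an adaptor of Fc receptors, at least 205-fold, and Spi1, the transcription factor PU.1, at least 146-fold.

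Several genes that define microglia in brain were at most at trace level in either group. Cx3cr1 had 1, 1 and 2 counts in the shlucif libraries, C1qa had 1, 0 and 0, P2ry12 had 0, 0 and 1 and Aif1 had 3, 2 and 5, and each had no count with shArf1-1. Tmem119, also used as a microglial marker, had 32, 31 and 31 counts with shlucif and 70, 47 and 86 with shArf1-1. The macrophage genes present in the control are therefore not the full set of microglial markers. In RNA from whole cultures, fewer cells of a type and less RNA per cell cannot be told apart, and the part of such cells in the other results was not tested.

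Markers of other cell types were scarce. The 5 astrocyte markers summed to between 0.549 and 0.701 FPKM in the shlucif libraries and between 0.132 and 0.454 FPKM in the shArf1-1 libraries, and 3 of them had no count in either group. Aldh1l1 was the 1 tested astrocyte marker and fell by 2.41, with the astrocyte median between -2.87 and -0.49 over the settings. The 7 oligodendrocyte markers were at 4.73 to 4.84 FPKM with shlucif and 3.51 to 4.08 FPKM with shArf1-1, nearly all of it Mbp, which also has forms outside oligodendrocytes and fell by 0.41. The 2 tested oligodendrocyte markers had a median of -0.11 that was 0.01 without shlucif replicate 1. Of the 7 fibroblast markers, which summed to 6.96 to 7.19 FPKM with shlucif and 2.20 to 2.32 FPKM with shArf1-1, 4 were tested and 2 fell, Col1a1 by 2.59 and Pdgfrb by 2.25, against 34.4% lower over all tested genes. The fibroblast median of -1.20 ran from -1.22 to -0.16 over the settings. The 4 endothelial markers were at 4.39 to 4.79 FPKM and 1.95 to 2.30 FPKM, and 2 of 3 tested were lower, Pecam1 by 1.18 and Cdh5 by 1.47, with a median of -1.18 that ran from -1.34 to -0.41. With so few tested markers, these counts are too small to set against the 34.4% lower over all tested genes. Krt8, the 1 tested of 4 epithelial markers, which summed to 3.26 to 3.74 FPKM and 0.959 to 1.48 FPKM, fell by 1.53. With no filter on low counts a further epithelial marker was tested and the median was 1.02. In each of these lists the shArf1-1 libraries summed to less than the shlucif libraries.

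Genes counted in shlucif cells and missing with shArf1-1 were more numerous than the reverse. At least 20 counts in each shlucif library and at most 3 over the shArf1-1 group were found for 182 genes, 109 of which had no count with shArf1-1. Galnt5, which adds the first sugar of mucin-type chains, was the 1 gene of the opposite kind, with 1, 0 and 0 counts with shlucif and 26, 47 and 71 with shArf1-1, a ratio of 144 (exact 95% counting interval 25.4 to 5726). Such intervals and the floors given above cover counting error only. Galnt5 is named here after its values were seen. The 182 genes were scarce, with a median of 0.847 FPKM in the shlucif group, and together they took 0.138%, 0.134% and 0.120% of the shlucif libraries' counts. Spp1 and Gpnmb alone took 0.238%, 0.222% and 0.204%.

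Spp1 (ENSMUSG00000029304), which encodes the secreted protein osteopontin, was at 996, 934 and 875 FPKM in the shlucif libraries. With shArf1-1 it was at 0.339, 0.434 and 0.389 FPKM, from 7, 8 and 10 counts. Among genes that reached 100 CPM in a group none fell as far, and the log2 fold change was -11.28 (edgeR quasi-likelihood test with Benjamini-Hochberg adjustment, SE 0.11, adjusted p = 2.47e-41). Gpnmb, a membrane glycoprotein of melanocytes and lipid-loaded macrophages, fell from 114, 105 and 92.4 FPKM to 0.0245, 0.0275 and 0.0788 FPKM, a log2 fold change of -11.12 (the same edgeR test, SE 0.15, adjusted p = 1.55e-25). Its shArf1-1 counts were 2, 2 and 8, and without shArf1-1 replicate 3 the value for Gpnmb was -11.94. Both genes were among the abundant transcripts of the control and at trace level in every shArf1-1 library. Dab2, an adaptor for endocytosis, had 546, 549 and 477 counts with shlucif and none with shArf1-1, at least 524-fold lower. The chemokine Ccl3 was at least 508-fold lower, the fatty acid carrier Fabp4 at least 239.7-fold, the inhibitory receptor Lilr4b at least 225-fold, and Pik3r5, the regulatory subunit of a PI3-kinase of leukocytes, at least 203-fold.

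The next 8 falls in size, among genes that reached 100 CPM in a group, were those of genes from several families. Cnn2, an actin-binding calponin, was at 60.9, 60 and 62 FPKM with shlucif and 6.69, 7.09 and 6.36 FPKM with shArf1-1. The groups did not overlap, and it fell by 3.24 (edgeR quasi-likelihood test with Benjamini-Hochberg adjustment, SE 0.079, adjusted p = 1.30e-27). Eml2, a microtubule-associated protein, went from 41.6, 42.1 and 41.6 FPKM to 5.8, 5.45 and 4.87 FPKM and fell by 3.02 (the same edgeR test, SE 0.077, adjusted p = 5.07e-27). Wwtr1 encodes TAZ, a transcriptional coactivator of the Hippo pathway, and fell by 2.48 from 46.8 to 8.68 FPKM. Anxa2, a membrane-binding annexin, fell by 2.30, and Hpcal1, a calcium sensor, by 2.36. Ptgs1, the cyclooxygenase that starts prostaglandin synthesis, fell by 2.18. Bst2 and Ifitm3, both antiviral membrane proteins, fell by 2.61 and 2.32. Ifitm3 has close relatives in the genome, so its counts may include or lose reads of these.

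The rises reached smaller folds. Chrna3 (ENSMUSG00000032303), a subunit of the nicotinic acetylcholine receptor of autonomic neurons, was at 3.14, 2.71 and 2.76 FPKM in the shlucif libraries and 41.2, 44.2 and 40.5 FPKM in the shArf1-1 libraries. The groups did not overlap, and it rose by 3.81 (edgeR quasi-likelihood test with Benjamini-Hochberg adjustment, SE 0.074, adjusted p = 8.84e-31), 14.1-fold, the largest rise among genes that reached 100 CPM in a group. Adgrf4, an adhesion G-protein-coupled receptor, rose further from a low level, from 6, 10 and 12 counts to 171, 169 and 238 counts, a log2 fold change of 4.35 (the same edgeR test, SE 0.22, adjusted p = 1.25e-18). Among genes that reached 5 CPM in a group and whose groups did not overlap, the next largest rises were 3.01 for Slc16a8, 2.85 for Terb2, 2.66 for Mmp15, 2.64 for Kcnh6 and 2.55 for Lrrn4. They were followed by 2.47 for Mgll, 2.47 for Adgrb3 and 2.44 for Csmd1. These genes had at most 84 counts in any shlucif library, so each rise starts from a low level. With limma on log2(FPKM + 1), in which the added 1 shrinks changes of scarce genes, Adgrf4 was at 2.24, Adgrb3 at 0.30 and Csmd1 at 0.42.

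The largest rises among genes that reached 100 CPM in a group included those of Sfpq, Srsf6 and Bclaf1. Sfpq, an RNA-binding protein of the paraspeckle, was at 11.6, 13.3 and 12.7 FPKM with shlucif and 44.9, 40.3 and 48 FPKM with shArf1-1, with no overlap, and rose by 1.77 (edgeR quasi-likelihood test with Benjamini-Hochberg adjustment, SE 0.068, adjusted p = 1.50e-21). Srsf6, a splicing factor, rose by 1.69 from 16.6 to 55.8 FPKM, and Bclaf1, a nuclear RNA-binding protein, by 1.71 from 5.05 to 17.1 FPKM.

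**Figure D2:**
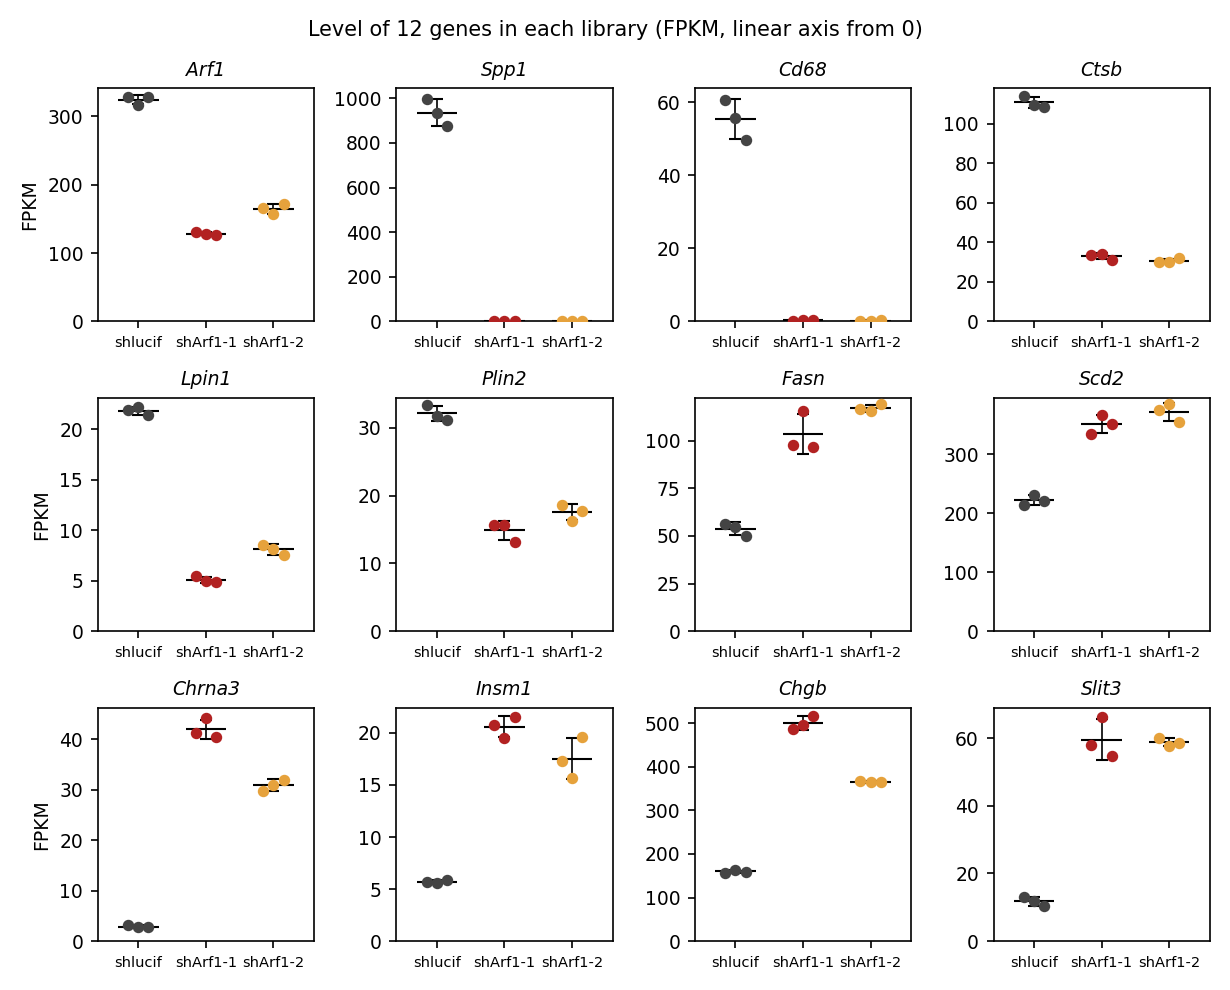
Deposited FPKM (vertical axis, linear from 0) of 12 genes in each library of the shlucif (grey), shArf1-1 (red) and shArf1-2 (orange) groups, with the mean as a horizontal line and the SD of 3 libraries as a bar. Arf1, Spp1, Cd68, Ctsb, Lpin1 and Plin2 are lower and Fasn, Scd2, Chrna3, Insm1, Chgb and Slit3 higher in all 3 shArf1-1 libraries than in any shlucif library.

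Of 15 tested genes of the Arf family and its regulators, 5 were higher (33.3%) and 5 lower (33.3%), against 33.1% and 34.4% over all tested genes, so the shares match those of all genes. Arf1 itself, the target of the hairpin, is 1 of the 5 lower members. The list had a median of 0.03 that was -0.02 without shArf1-1 replicate 2 and -0.01 without shlucif replicate 3, against 0 over all tested genes. Arf4, a Golgi Arf that can act beside Arf1, was counted 1881, 1934 and 2038 times with shlucif and 2378, 1866 and 3000 times with shArf1-1. These counts overlap before scaling, and after scaling Arf4 rose by 0.30 (edgeR quasi-likelihood test with Benjamini-Hochberg adjustment, SE 0.059, adjusted p = 3.31e-05). Arf6, the Arf of the plasma membrane and endosomes, fell by 0.82, Arf5 by 0.62, and Arfgap3, a GTPase-activating protein of the Golgi, by 0.78. Cyth3, an exchange factor for Arf6 and Arf1, rose from 9.19, 8.43 and 8.59 FPKM to 32.5, 33.1 and 31.9 FPKM, by 1.84 (the same edgeR test, SE 0.055, adjusted p = 3.40e-25). Gbf1, the Golgi exchange factor of Arf1, rose by 0.57. Arf2 had a log2 fold change of -0.08 and Arf3 of -0.05, neither past the threshold, and that of Arf3 was 0.01 with total count scaling.

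In the COPI coat and the clathrin adaptors, which GTP-bound Arf1 recruits, 8 of 18 tested genes were higher (44.4%) and 3 lower (16.7%), against 33.1% and 34.4% over all tested genes, with a median of 0.05. Copb2, a coat subunit, was at 26.6, 26.5 and 26.4 FPKM with shlucif and 36.6, 38.5 and 39.8 FPKM with shArf1-1. No shArf1-1 library was as low as a shlucif library, and it rose by 0.48 (edgeR quasi-likelihood test with Benjamini-Hochberg adjustment, SE 0.054, adjusted p = 1.15e-09). The coat subunits Copg1, Arcn1, Cope and Copa rose by 0.58, 0.51, 0.31 and 0.23, whereas Copg2, the alternative form of Copg1, fell by 0.29. Copb1 and Copz1 were at 0.02 and -0.02, short of the threshold. Ap3d1, a subunit of the adaptor that sorts cargo to lysosomes and synaptic vesicles, rose by 1.22, and its partner Ap3b1 fell by 0.31.

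Golgins and stacking proteins hold the Golgi cisternae together and tether vesicles to them. Of 14 tested, 7 were higher (50.0%) and 3 lower (21.4%), against 33.1% and 34.4% over all tested genes, with a median of 0.14. Bicd1, a dynein adaptor at the Golgi, rose by 1.98 from 85, 70 and 80 to 314, 242 and 371 counts, with no overlap. Golga1 rose by 0.75, Trip11 by 0.62, and the tether Uso1 by 0.43. Golga5 fell by 0.51, Golgb1 by 0.28 and Golga2, the golgin GM130, by 0.18. The falls of Golga2 and Golgb1 did not pass the threshold on the log2 FPKM scales, nor that of Golgb1 with total count scaling, without shArf1-1 replicate 1 or without shlucif replicate 2.

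Fatty acid synthesis genes split. All 14 tested members changed, 8 higher (57.1%) and 6 lower (42.9%), against 33.1% and 34.4% over all tested genes, with a median of 0.17 that was -0.04 with no filter on low counts. Fasn (ENSMUSG00000025153), the synthase that builds palmitate, was at 56.4, 54.8 and 49.9 FPKM with shlucif and 97.9, 116 and 96.6 FPKM with shArf1-1. The groups did not overlap, library 2 of shArf1-1 being the highest, and Fasn rose by 0.89 (edgeR quasi-likelihood test with Benjamini-Hochberg adjustment, SE 0.06, adjusted p = 9.30e-14). Scd2, which puts the double bond into oleate, rose by 0.61 from 222 to 352 FPKM. The elongase Elovl6 rose by 0.99, the desaturase Fads2 by 0.68, Acaca, which makes malonyl-CoA, by 0.67, and Acly, which supplies acetyl-CoA, by 0.20. The lower members were Acacb, by 0.46, and Elovl5, Acss2, Elovl1, Fads1 and Me1, by 0.39, 0.35, 0.27, 0.25 and 0.24. Scd1 was low, with 85, 100 and 90 counts with shlucif and 97, 178 and 146 with shArf1-1. Its rise of 0.64 rested on library 2, since without shArf1-1 replicate 2 it was 0.29 and no longer past the threshold.

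Cholesterol synthesis and uptake genes moved in both directions too, with 11 of 22 tested higher (50.0%), 9 lower (40.9%), against 33.1% and 34.4% over all tested genes, and a median of 0.08. Hsd17b7, which acts late in the pathway, was at 6.22, 6.22 and 6.24 FPKM with shlucif and 12, 11.8 and 13.5 FPKM with shArf1-1. It rose in all 3 libraries, by 0.95 (edgeR quasi-likelihood test with Benjamini-Hochberg adjustment, SE 0.076, adjusted p = 3.61e-13). Mvk rose by 0.77, Nsdhl by 0.60, Cyp51 by 0.53 and the squalene epoxidase Sqle by 0.29. Fdps fell by 1.08, from 105, 109 and 106 to 60, 38 and 53 counts, but it has near-identical copies in the genome, so the fall is uncertain. Msmo1 fell by 0.49, Hmgcs1 by 0.44 and Srebf2, the transcription factor of the pathway, by 0.35. Insig1, which retains SREBP in the endoplasmic reticulum, fell by 0.19. It did not pass without shArf1-1 replicate 2 or 3, without shlucif replicate 2 or 3, or with total count scaling and the log2 FPKM scales.

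Genes of the lipid droplet were mostly lower: 9 of 14 tested fell (64.3%) and 2 rose (14.3%), against 34.4% and 33.1% over all tested genes, with a median of -0.36. Lpin1 (ENSMUSG00000020593), a phosphatidate phosphatase that makes diacylglycerol, was at 21.9, 22.2 and 21.4 FPKM with shlucif and 5.47, 4.96 and 4.85 FPKM with shArf1-1. The groups were far apart, and Lpin1 fell by 2.15 (edgeR quasi-likelihood test with Benjamini-Hochberg adjustment, SE 0.064, adjusted p = 3.36e-25). The droplet coat proteins Plin2 and Plin3 fell by 1.17 and 1.99, Plin2 from 33.4, 31.8 and 31.2 FPKM to 15.7, 15.7 and 13.2 FPKM. Soat1, which esterifies cholesterol for storage, fell by 2.00, from 8.66 to 2.25 FPKM. The triglyceride lipase Pnpla2 fell by 0.93, its activator Abhd5 by 0.36 and Lipe, which hydrolyses diacylglycerol, by 0.89. Among the acyltransferases that complete triglyceride synthesis, Dgat1 fell by 0.30 and Dgat2 by 0.19. The fall of Dgat2 did not pass the threshold without shArf1-1 replicate 1, 2 or 3, without shlucif replicate 1 or 3, or in 6 of the other settings tried. Mgll, which degrades monoglycerides, rose by 2.47 from 57, 42 and 49 counts to 243, 251 and 326, and Fitm2, which helps droplets form, by 0.51. Most macrophage markers fell in the same libraries, and the part of macrophage RNA in this list was not tested.

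For sphingolipid synthesis, 6 of 17 tested genes were lower (35.3%) and 4 higher (23.5%), against 34.4% and 33.1% over all tested genes, with a median of -0.08. Cers4, a ceramide synthase, fell by 1.15 from 15.7, 15.1 and 16.5 FPKM to 7.24, 7.71 and 7.16 FPKM, with no overlap. The sphingomyelin synthase Sgms2 fell by 0.97, and Sptlc2, a subunit of serine palmitoyltransferase that starts the pathway, by 0.44. The other core subunit, Sptlc1, rose by 0.30, and the desaturase Degs1 by 0.45. Without shArf1-1 replicate 3, or without shlucif replicate 3, 2 members were higher in place of 4.

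Lysosomal hydrolases and membrane proteins were lower in large number. Of 30 tested, 26 fell (86.7%) and 1 rose (3.33%), with a median of -0.81, against 34.4% lower, 33.1% higher and a median of 0 among all tested genes. Ctsb (ENSMUSG00000021939), a cathepsin protease, was at 114, 109.7 and 109 FPKM with shlucif and 33.8, 34.3 and 31.3 FPKM with shArf1-1. The 3 shArf1-1 libraries lay together and far below, and Ctsb fell by 1.80 (edgeR quasi-likelihood test with Benjamini-Hochberg adjustment, SE 0.053, adjusted p = 2.35e-25). Ctsl went from 41, 40.1 and 38.3 FPKM to 9.58, 9.45 and 9.86 FPKM and fell by 2.10 (the same edgeR test, SE 0.06, adjusted p = 8.18e-26). Grn, the precursor of the granulins, fell by 1.65 from 126 to 42 FPKM. Enzymes that degrade gangliosides and other sphingolipids were among the lower genes, such as Neu1 by 1.03, Gla by 0.92 and Asah1 by 0.76. Npc2, which carries cholesterol out of the lysosome, fell by 1.24 and its partner Npc1 by 0.64. Psap, a precursor of sphingolipid activators and the most abundant gene of the list in the control, fell from 525 to 374 FPKM, and Lamp1, a membrane protein of the lysosome, from 196 to 152 FPKM. Galc, which degrades galactosylceramide, was the 1 higher member at 0.34. Smpd1, Scarb2 and Mcoln1 were at -0.11, -0.10 and -0.13, short of the threshold. Macrophage RNA also carries cathepsin transcripts, and macrophage markers fell in the same libraries, but their part in this list was not tested.

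Autophagy genes fell as well, 17 of 27 tested lower (63.0%) and 3 higher (11.1%), against 34.4% and 33.1% over all tested genes, with a median of -0.52. Sqstm1, the cargo receptor p62, was at 415, 405 and 447 FPKM with shlucif and 194, 191 and 179 FPKM with shArf1-1. It was less than 50% of the control in every library, and fell by 1.22 (edgeR quasi-likelihood test with Benjamini-Hochberg adjustment, SE 0.052, adjusted p = 8.80e-21). Wipi1, which marks forming autophagosomes, fell by 1.41 from 100.4 to 39.1 FPKM. Tfeb and Mitf, related transcription factors of lysosomal genes, fell by 1.56 and 1.74, whereas Tfe3 was at -0.02. Map1lc3b, the LC3 protein that is attached to autophagosomes, fell by 0.52, and Pink1, a kinase that marks damaged mitochondria, by 1.10. The largest rise of the list was 1.68, and the higher members also included Atg16l1, at 0.51, and Becn1, at 0.16. Without shArf1-1 replicate 3 or without shlucif replicate 2, 1 member was higher. The part of macrophage RNA in the falls of these genes was not tested either.

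Of 22 tested chaperones of the endoplasmic reticulum and genes of the unfolded protein response, 12 were higher (54.5%) and 6 lower (27.3%), against 33.1% and 34.4% over all tested genes, with a median of 0.22. Hspa5, the chaperone BiP, was at 193, 198 and 203 FPKM with shlucif and 254, 249 and 235 FPKM with shArf1-1. It rose in all 3 libraries by 0.26 (edgeR quasi-likelihood test with Benjamini-Hochberg adjustment, SE 0.049, adjusted p = 1.85e-05). Manf, a secreted stress protein, rose by 0.65, Dnajc3 by 0.57, Dnajb9 by 0.53 and the transcription factor Xbp1 by 0.41. The stress sensor Ern1 (IRE1) fell by 0.66, the sensor Atf6 by 0.30, and Sel1l, part of the degradation machinery, by 0.66. The third sensor, Eif2ak3 (PERK), was at -0.08, short of the threshold.

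Targets of the integrated stress response split, with 8 of 22 tested higher (36.4%), 10 lower (45.5%), against 33.1% and 34.4% over all tested genes, and a median of -0.03 that was 0.02 with total count scaling and on the log2 FPKM scales, and 0.03 with at least 10 counts in every library. Atf4, the transcription factor of the response, was at 250.1, 237 and 233 FPKM with shlucif and 362, 374 and 369 FPKM with shArf1-1. All shArf1-1 libraries were higher, by 0.56 (edgeR quasi-likelihood test with Benjamini-Hochberg adjustment, SE 0.049, adjusted p = 2.87e-12). Its relative Atf5 rose by 1.21 and the secreted Stc2 by 1.22. Ddit3 (CHOP), a proapoptotic factor downstream of Atf4, fell from 46.8, 42.3 and 48.6 FPKM to 25.6, 20.3 and 19.3 FPKM, by 1.14 (the same edgeR test, SE 0.086, adjusted p = 3.69e-13). Atf3 fell by 1.13, the serine-synthesis enzyme Phgdh by 0.71 and the asparagine synthetase Asns by 0.25.

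Of the 11 tested mitochondrially encoded genes, 6 were higher (54.5%) and none was lower, against 33.1% and 34.4% over all tested genes, with a median of 0.51. In a fit of only the 6 libraries compared, 1 was lower. The number higher was 3 without shArf1-1 replicate 1, and also 3 without shlucif replicate 1. mt-Cytb, of respiratory complex III, was at 1442, 1639 and 1431 FPKM with shlucif and 3713, 2935 and 3037 FPKM with shArf1-1. Library 1 of shArf1-1, which also had the largest mitochondrial share, was the highest. The rise was 1.05 (edgeR quasi-likelihood test with Benjamini-Hochberg adjustment, SE 0.17, adjusted p = 0.00126). The complex I genes mt-Nd1 and mt-Nd2 rose by 1.30 and 0.75. mt-Nd4 rose by 0.70 but did not pass without shArf1-1 replicate 1 or 2, without shlucif replicate 1, 2 or 3, or with a replicate block. The complex IV genes mt-Co1 and mt-Co3 were at -0.31 and -0.15, short of the threshold. Since the libraries were enriched for polyadenylated RNA, the values also depend on the short tails of these transcripts. With shArf1-2 the median of the list was 0.02.

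Genes of mitochondrial calcium handling and the permeability transition were lower in 9 of 18 (50.0%) and higher in 6 (33.3%), against 34.4% and 33.1% over all tested genes, with a median of -0.20. Mcu, the pore of the calcium uniporter, fell from 5.82, 5.96 and 6.28 FPKM to 3.62, 3.31 and 3.85 FPKM, by 0.79 (edgeR quasi-likelihood test with Benjamini-Hochberg adjustment, SE 0.087, adjusted p = 6.69e-10), with no overlap. Its regulator Mcub fell by 0.70, while Smdt1 and Micu3 rose by 0.31 and 0.70. Vdac1, the channel of the outer membrane, fell by 0.20 and Vdac2 by 0.72. Itpr3, a calcium release channel of the endoplasmic reticulum, went from 497, 430 and 413 counts to 19, 34 and 17 and fell by 4.24. Ppif, the cyclophilin of the transition pore, rose by 0.33.

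Genes of the interferon response and of cytosolic DNA sensing were mostly lower. Of 21 tested, 18 fell (85.7%) and none rose, against 34.4% and 33.1% over all tested genes, with a median of -1.98. For interferon and cytosolic DNA sensing the median log2 fold change ran from -2.12 to -1.11 over the settings, the latter with limma on log2(FPKM + 1). Irf7, a transcription factor that amplifies the interferon response, had 302, 262 and 214 counts with shlucif and 10, 7 and 13 with shArf1-1. The groups did not come near each other, and it fell by 4.68 (edgeR quasi-likelihood test with Benjamini-Hochberg adjustment, SE 0.23, adjusted p = 3.39e-19). Oas1a, which senses double-stranded RNA, fell by 4.71 from 15 to 0.562 FPKM, and Oas1a was at -5.33 without shArf1-1 replicate 3. The protease Usp18, which limits interferon signalling, fell by 4.01, the antiviral Rsad2 by 3.11 and the ubiquitin-like Isg15 by 3.05. Sting1, the adaptor of DNA sensing, fell by 0.87. The DNA sensor Cgas was at -0.03 and the kinase Tbk1 at -0.14, short of the threshold. Myeloid cells express many of these genes, and the part of macrophage RNA in this fall was not tested.

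MHC class I genes, which present peptides to T cells, were lower in 11 of 14 (78.6%) and higher in 1 (7.14%), against 34.4% and 33.1% over all tested genes, with a median of -1.09. On both log2 FPKM scales 2 members were higher. B2m, the light chain shared by class I molecules, was at 476, 469.8 and 479 FPKM with shlucif and 237, 209.7 and 239.5 FPKM with shArf1-1. All shArf1-1 libraries were lower, and it fell by 1.11 (edgeR quasi-likelihood test with Benjamini-Hochberg adjustment, SE 0.054, adjusted p = 3.42e-19). The peptide transporter Tap1 fell by 1.47 and Nlrc5, the transactivator of class I genes, by 2.29. The largest fall, of 4.21, was that of H2-T23, from 66, 36 and 34 to 0, 3 and 4 counts. H2-D1 fell by 1.14, with the reserve that reads of class I genes may be shared among near-identical members. Erap1, which trims peptides, was the 1 higher member, at 0.49.

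Cell cycle genes were higher in 20 of 40 (50.0%) and lower in 6 (15%), against 33.1% and 34.4% over all tested genes, with a median of 0.13. With shArf1-2, 15 of the 40 were higher and 17 lower, with a median of 0.05. Between the hairpins 17 of the 40 differed, against 14.4% over all tested genes. Mycn (ENSMUSG00000037169), the oncogene of neuroblastoma, was at 11.4, 12.4 and 12.1 FPKM with shlucif and 29.9, 27.9 and 26.3 FPKM with shArf1-1. All shArf1-1 libraries were above all shlucif libraries, and it rose by 1.17 (edgeR quasi-likelihood test with Benjamini-Hochberg adjustment, SE 0.073, adjusted p = 3.26e-16). Its relative Myc rose by 0.95 from 40.7 to 81.5 FPKM. The mitotic genes Ccnb1, Aurka and Plk1 rose by 0.60, 0.60 and 0.53, and Tyms and Rrm2, which make DNA precursors, by 0.69 and 0.49. Mki67, the antigen of proliferating cells, was at 0.12 and the inhibitor Cdkn1a at -0.12, both short of the threshold here and past it in some settings. Mki67 passed without shArf1-1 replicate 1, without shlucif replicate 2, with a replicate block and with no filter on low counts. Cdkn1a passed with upper quartile scaling, with DESeq2 and with at least 10 counts in every library. The D cyclins were all lower: Ccnd1 fell by 0.19, Ccnd3 by 0.85, and Ccnd2 had 62, 78 and 72 counts with shlucif and none with shArf1-1, at least 70.7-fold lower.

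In the PI3K, AKT and mTOR axis, 11 of 27 tested genes were higher (40.7%) and 9 lower (33.3%), near the 33.1% and 34.4% over all tested genes, with a median of -0.01 that was 0.04 with total count scaling and on the log2 FPKM scales. Deptor, an inhibitor that binds mTOR, was at 13.4, 14 and 12.6 FPKM with shlucif and 3.49, 3.12 and 3.92 FPKM with shArf1-1. Each shArf1-1 library was below each shlucif library, and it fell by 1.97 (edgeR quasi-likelihood test with Benjamini-Hochberg adjustment, SE 0.08, adjusted p = 4.07e-21). The kinase Mtor rose by 0.30 and Mlst8, a subunit of both mTOR complexes, by 0.75, while Rictor, the defining subunit of complex mTORC2, fell by 0.52. Rptor, which defines mTORC1, was at 0.00. Among receptors and adaptors of the insulin pathway, Igf1r, Irs2 and Insr fell by 0.95, 0.66 and 0.52, and the subunit Pik3r3 rose by 1.17. Akt1 rose by 0.14 and Akt2 fell by 0.27. The rise of Akt1 did not pass without shArf1-1 replicate 1 or 2, without shlucif replicate 1 or 2, with upper quartile scaling, with DESeq2, or with at least 10 counts in every library.

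Glycolytic genes were lower in 14 of 21 (66.7%) and higher in 4 (19.0%), against 34.4% and 33.1% over all tested genes, with a median of -0.29. The glucose transporter Slc2a1 fell from 14.4, 13.2 and 13.4 FPKM to 5.74, 5.08 and 5.18 FPKM, by 1.41 (edgeR quasi-likelihood test with Benjamini-Hochberg adjustment, SE 0.092, adjusted p = 1.14e-15), with no overlap. Aldoc and Eno2, the brain forms of aldolase and enolase, fell by 2.01 and 1.21, and Pdk1, which restrains entry of pyruvate into mitochondria, by 2.02. Ldha, which makes lactate, rose by 0.42 and the lactate exporter Slc16a3 by 0.56. Gapdh fell by 1.21 from 18.9 to 8.48 FPKM, but it has many near-identical pseudogenes, so its count is uncertain.

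Genes of sympathetic neuroblast identity formed the list with the highest median, 1.07. Of 19 tested, 14 rose (73.7%) and none fell, against 33.1% higher and 34.4% lower among all tested genes. These counts depend on which genes the list holds. Prph, the most abundant of the neuroblast markers checked above in the control, and the granins Scg2 and Scg3 are counted in other lists and fell. Insm1 (ENSMUSG00000068154), a transcription factor of neuroendocrine precursors, was at 5.69, 5.57 and 5.87 FPKM with shlucif and 20.8, 19.5 and 21.5 FPKM with shArf1-1. The shArf1-1 libraries all lay above, and it rose by 1.80 (edgeR quasi-likelihood test with Benjamini-Hochberg adjustment, SE 0.089, adjusted p = 6.57e-19). Chgb, a protein of dense-core vesicles and the most abundant gene of the list, rose from 157, 163 and 159.7 FPKM to 486, 496 and 517 FPKM, by 1.59 (the same edgeR test, SE 0.049, adjusted p = 5.44e-25). The list summed to 650.9, 649.7 and 640.0 FPKM with shlucif and to 1266, 1287 and 1272 FPKM with shArf1-1. The transcription factors Gata3, Isl1, Phox2a and Gata2 rose by 1.72, 1.07, 0.41 and 0.39. Dbh, which makes noradrenaline, rose by 2.20 from 29, 25 and 26 to 86, 124 and 158 counts. Th, which acts before it, was at 0.16 and was -0.06 without shArf1-1 replicate 2, and Npy, a peptide of sympathetic neurons, had no count in either group. Hand2, at 0.58, did not pass the threshold although its libraries did not overlap.

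Neuronal cytoskeleton and growth cone genes were higher in 14 of 22 (63.6%) and lower in 5 (22.7%), against 33.1% and 34.4% over all tested genes, with a median of 0.43. Tubb3 rose from 439, 399 and 392 FPKM to 713, 759 and 611 FPKM, by 0.71 (edgeR quasi-likelihood test with Benjamini-Hochberg adjustment, SE 0.066, adjusted p = 2.15e-09), with no overlap. The intermediate filaments Ina and Nefh rose by 1.61 and 0.95, and Prph, another one, fell by 0.43. Map1b, a microtubule-binding protein of growing axons, rose by 0.78, Stmn2 by 0.51 and Gap43 by 0.46. Map2 and Mapt, which bind microtubules of dendrites and axons, fell by 0.43 and 0.64.

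Synaptic vesicle and exocytosis genes were higher in 13 of 26 (50.0%) and lower in 6 (23.1%), against 33.1% and 34.4% over all tested genes, with a median of 0.19. Sv2c, a vesicle membrane protein, rose from 22.1, 21.6 and 20.9 FPKM to 61.6, 66.9 and 67.1 FPKM, by 1.54 (edgeR quasi-likelihood test with Benjamini-Hochberg adjustment, SE 0.052, adjusted p = 9.87e-24), and the groups did not overlap. Cplx2, which clamps fusion, rose by 1.69 and the active-zone protein Rims2 by 0.93. Syt1, the calcium sensor of release, rose by 0.59. Snap25, a core fusion protein, was at -0.01, and at 0.05 with total count scaling. Scg2 and Scg3, granins of dense-core vesicles, fell by 0.48 and 0.31. The largest change of the list was the fall of Cadps, which primes dense-core vesicles, from 46, 33 and 35 counts to 0, 0 and 4, by 4.72. Among voltage-gated ion channels, 11 of 28 tested genes were higher (39.3%) and 8 lower (28.6%), near the 33.1% and 34.4% over all tested genes, with a median of 0.03. Kcnh6, a potassium channel, went from 18, 13 and 22 counts to 97, 102 and 134 and rose by 2.64, while the potassium channel Kcnc1 fell by 1.03 and the calcium channel Cacna1h by 1.77. The sodium channel Scn3a rose by 0.94.

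Adhesion and matrix genes were lower in 18 of 23 (78.3%) and higher in 2 (8.70%), against 34.4% and 33.1% over all tested genes, with a median of -0.72. Most macrophage markers and some markers of fibroblasts and endothelium were lower in the same libraries, and their part in this list was not tested. Sparc, a secreted matrix protein, was at 101, 93.9 and 94.3 FPKM with shlucif and 27.3, 25.4 and 26.8 FPKM with shArf1-1. All shArf1-1 libraries were lower, and the log2 fold change was -1.92 (edgeR quasi-likelihood test with Benjamini-Hochberg adjustment, SE 0.058, adjusted p = 4.12e-25). The integrin subunits Itga5, Itgb3 and Itga3, which bind fibronectin, vitronectin and laminin, fell by 2.21, 1.89 and 1.20. The basement membrane genes Col18a1, Col4a1 and Col4a2 fell by 1.37, 0.72 and 0.73. Cd44, the hyaluronan receptor, went from 346, 328 and 272 counts with shlucif to 1, 1 and 3 with shArf1-1. Mmp15, a membrane-bound metalloproteinase, and Itga1 were the higher members, and 1 was higher without shArf1-1 replicate 2, without shlucif replicate 1, or on the log2 FPKM scales.

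Axon guidance genes changed in both directions, 12 of 26 higher (46.2%) and 12 lower (46.2%), against 33.1% and 34.4% over all tested genes, with a median of 0.12. Slit3, a secreted guidance cue, rose from 13.1, 12 and 10.4 FPKM to 57.9, 66.2 and 54.6 FPKM, by 2.27 (edgeR quasi-likelihood test with Benjamini-Hochberg adjustment, SE 0.076, adjusted p = 2.42e-16), with no overlap. Its relative Slit2 rose by 1.46, the semaphorin receptors Nrp1 and Plxna4 by 2.43 and 2.01, and the netrin receptor Unc5c by 1.29. Nrp2, the close relative of Nrp1, fell by 0.64. Netrin itself, Ntn1, fell by 2.20 and the ephrin Efna1 by 2.06. Plxna2, a semaphorin receptor, had 20, 27 and 26 counts with shlucif and 0, 0 and 2 with shArf1-1, a ratio of 36.5 (exact 95% counting interval 9.75 to 307.1).

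Reference genes often used to scale expression were not flat: 8 of 12 fell (66.7%) and 3 rose (25%), against 34.4% and 33.1% over all tested genes, with a median of -0.15. Actb fell from 1203, 1088 and 1061 FPKM to 844, 850.2 and 771 FPKM, by 0.50 (edgeR quasi-likelihood test with Benjamini-Hochberg adjustment, SE 0.055, adjusted p = 9.83e-10). Rplp0 fell by 0.36, and Tfrc, the transferrin receptor, rose by 1.59. Ppia was at 0.10, short of the threshold. Over all tested genes the median log2 fold change stayed between -0.02 and 0.05 under the other scalings.

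**Figure D3:**
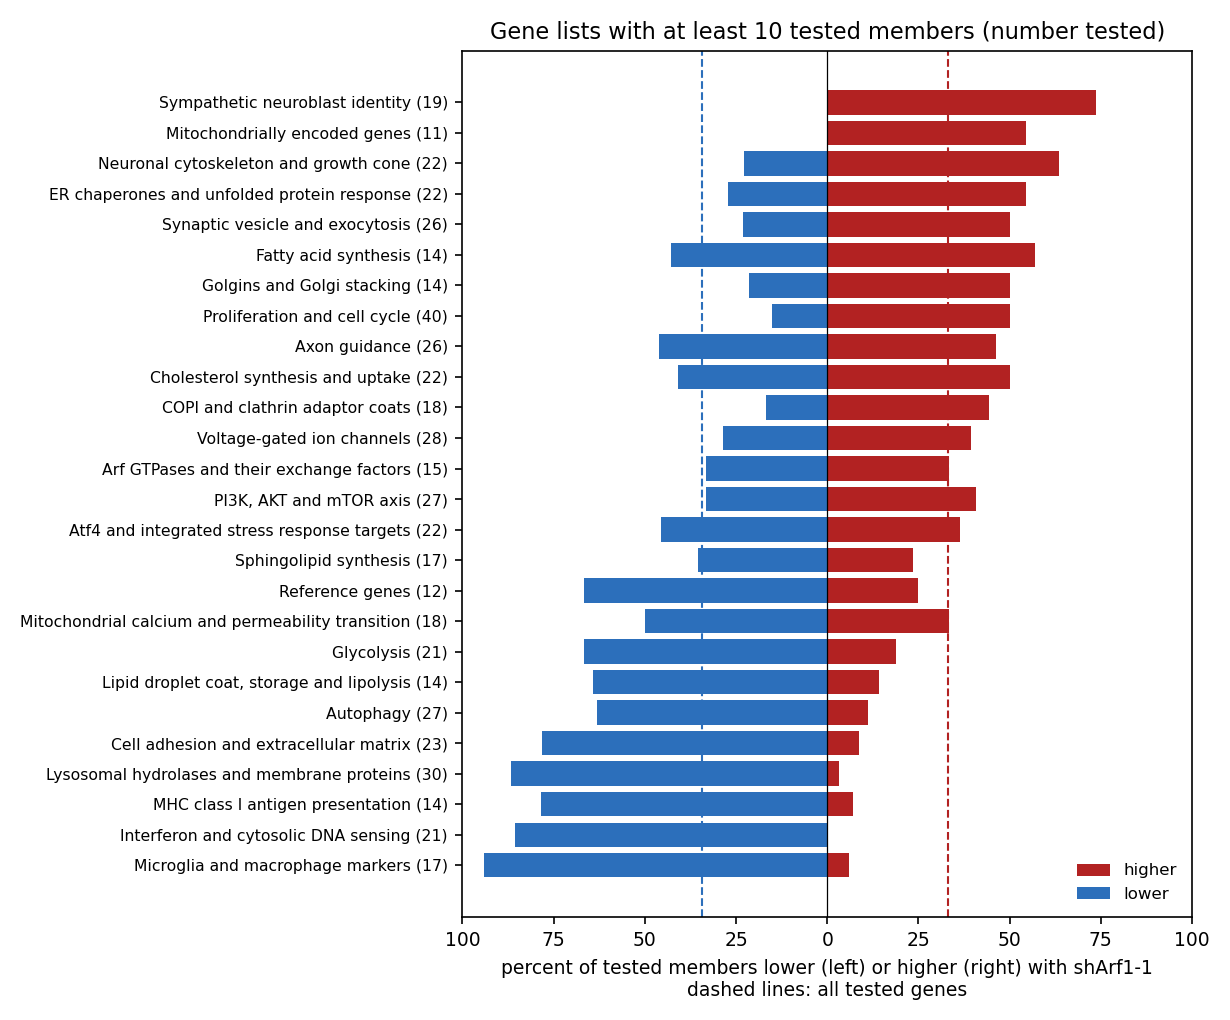
Percent of tested members called lower (blue, left) and higher (red, right) with shArf1-1 in each gene list with at least 10 tested members, ordered by median log2 fold change, with the number tested in parentheses. Dashed lines mark all tested genes, 34.4% lower and 33.1% higher. The sympathetic neuroblast list lies at the top and the microglia and macrophage list at the bottom. The lists were chosen with earlier results of these data known.

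Of 253 pathways of the deposited annotation with at least 30 tested genes, those with the highest medians were Pyrimidine metabolism at 0.34 (31 of 46 higher, 9 lower) and RNA polymerase at 0.34 (18 of 30 higher, 6 lower), against 33.1% higher and 34.4% lower over all tested genes. They were followed by Nucleocytoplasmic transport at 0.31 (62 of 98 higher, 16 lower) and Ribosome biogenesis in eukaryotes at 0.30 (47 of 74 higher, 11 lower). Systemic lupus erythematosus, a set made largely of histone and complement genes, also had a median of 0.30, but 12 of its 50 genes were called higher and 18 lower. The lowest medians were those of Hematopoietic cell lineage at -1.33 (7 of 39 higher, 26 lower), Complement and coagulation cascades at -0.81 (9 of 38 higher, 23 lower) and ECM-receptor interaction at -0.75 (7 of 52 higher, 36 lower). Osteoclast differentiation was at -0.68 (17 of 94 higher, 64 lower) and Viral myocarditis at -0.66 (7 of 39 higher, 25 lower). The pathways share genes, so these counts are not independent.

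By position, the nuclear chromosomes had medians near 0, from -0.12 on chromosome 15 (29.9% of 509 tested genes higher and 44.6% lower) to 0.13 on chromosome 13 (38.2% of 456 higher and 25.7% lower), against 33.1% and 34.4% over all tested genes. With the tested genes divided by listed length into 4 equal groups, from short to long, the medians were -0.04, -0.02, -0.01 and 0.06, with 28.1% higher among the shortest and 39.4% among the longest. With the same division by abundance, from low to high, the medians were -0.27, -0.02, 0.07 and 0.05. The least abundant group held 885 of the falls of at least 2-fold, and 154 of the genes with no count over a whole group.

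The hairpins were compared with each other to see which changes differ in size, a contrast into which the shlucif levels do not enter. Between shArf1-1 and shArf1-2 cells 1798 of 12448 genes (14.4%) passed the edgeR quasi-likelihood test with Benjamini-Hochberg adjustment, 929 higher (7.46%) and 869 lower (6.98%) with shArf1-1. The count was 1159 without shArf1-1 replicate 1 and 1194 without shArf1-2 replicate 1. Both hairpins were compared with the same shlucif libraries, so their changes against it are given side by side and are not independent. Arf1 changed by -1.39 with shArf1-1 and by -1.05 with shArf1-2. Mycn was at 1.17 and 0.50, Insm1 at 1.80 and 1.55, and Lpin1 at -2.15 and -1.50, and each of these differences passed the test between hairpins. For Fasn the values were 0.89 and 1.05, for Ctsb -1.80 and -1.92, and for Sqstm1 -1.22 and -1.09, and none of these passed it.

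Among genes with at least 5 CPM and no overlap between the hairpins, Septin10, a filament-forming GTPase, had 683, 571 and 883 counts with shArf1-1 and 1878, 1578 and 1600 with shArf1-2. The control had 1813, 1828 and 1825 counts, nearer to shArf1-2 than to shArf1-1. Its difference of -1.12 had an adjusted p of 1.30e-14 (edgeR quasi-likelihood test with Benjamini-Hochberg adjustment, shArf1-1 against shArf1-2). Insl6, a relaxin-family peptide, differed by -1.22. Higher with shArf1-1 than with shArf1-2 were Gk5, a glycerol kinase, by 0.89 and Fam114a1 by 0.88. Ccnd1 was at 3648, 3526 and 4437 counts with shArf1-1 and 2443, 2369 and 2465 with shArf1-2, a difference of 0.80 (the same edgeR test, adjusted p = 3.34e-13). Against shlucif, Ccnd1 changed by -0.19 with shArf1-1 and by -0.99 with shArf1-2. In the same order, Fam114a1 changed by -0.48 and -1.36, and Gk5 by 0.21 and -0.69.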

How the data were processed

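The authors deposited raw read counts per gene, with no normalization. The FPKM values were also deposited by the authors, as counts scaled to listed gene length and library total. No aligner, counting tool or strand setting is stated, and per the labels the build is mm10. Counts were filtered with filterByExpr, scaled with TMM and fitted with a quasi-likelihood model in edgeR 4.0.16 (R 4.3.3) over 3 groups of 3 libraries, with Benjamini-Hochberg adjustment over 12448 tested genes. The alternatives were total count and upper quartile scaling, DESeq2 1.42.0, other filters, limma 3.58.1 on log2 FPKM, a replicate block, the 6 libraries alone, and leaving out each library. Python 3.11.15 was used for tables and figures. Named by size were the 10 largest rises and falls past the threshold with no overlap of groups, at 5 and at 100 CPM, and the 5 largest hairpin differences. Named from each of 31 gene lists were chosen members and the 4 largest changes at 5 CPM, and other members are given as examples. Members and lists were chosen with earlier results of these data known. Some genes that these rules name are not reported here, and stay in the counts and medians.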

Additional observations from a re-analysis of the deposited data

Results flagged for a closer look

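Of 181 named genes tested, 72 differed between shArf1-1 and shArf1-2 cells at an adjusted p under 0.05 in the edgeR quasi-likelihood test with Benjamini-Hochberg adjustment over all tested genes. Over all tested genes 1798 of 12448 (14.4%) did. The named genes were chosen for large changes, and 9 of them for a large difference between the hairpins, so the count among them is raised by that choice. The values are log2 fold changes of shArf1-1 relative to shArf1-2, and do not give the direction against shlucif. Against shlucif, 59 of the 72 changed in the same direction with both hairpins and further with shArf1-1. Another 6, such as Sgms2 and Golga5, which fell with both, changed further with shArf1-2. For the remaining 7 the directions were opposite or a change was 0.

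For 40 genes the level was lower with shArf1-1 than with shArf1-2. The differences were -4.40 for Ccnd2, -1.65 for Kcnt1, -1.52 for Hhatl, -1.48 for Usp18, -1.41 for Col1a1 and -1.22 for Insl6. They were followed by -1.12 for Septin10, -1.10 for Krt8, -1.04 for Itpr3, -1.0 for Fdps, -0.93 for Oas1a, -0.91 for Pdgfrb and -0.72 for Cnn2. Next came -0.67 for Eml2, -0.65 for Deptor, -0.65 for Lpin1, -0.62 for Ifitm3, -0.56 for Aldoc, -0.55 for Bst2 and -0.53 for Ddit3. Smaller differences were -0.49 for Tfeb, -0.48 for Ptgs1, -0.47 for Wwtr1, -0.43 for Hpcal1, -0.40 for Snap25, -0.37 for Tap1 and -0.35 for Plin3. Then followed -0.34 for Arf1, -0.34 for Atf3, -0.31 for B2m, -0.29 for H2-D1, -0.29 for Dgat2, -0.28 for Hmgcs1 and -0.23 for Plin2. The smallest of these were -0.22 for Ern1, -0.21 for Anxa2, -0.21 for Cers4, -0.19 for Wipi1, -0.17 for Grn and -0.15 for Ncam1.

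For 32 genes the level was higher with shArf1-1 than with shArf1-2. Largest were 0.98 for St18, 0.95 for Taf13, 0.93 for Mab21l2, 0.89 for Gk5, 0.88 for Fam114a1, 0.85 for Adgrf4 and 0.80 for Ccnd1. Below these were 0.78 for Dbh, 0.72 for mt-Cytb, 0.67 for Mycn, 0.65 for mt-Nd1, 0.46 for Chrna3 and 0.43 for Sfpq. Further values were 0.41 for Copb2, 0.39 for Mmp15, 0.37 for Plxna4, 0.37 for Sgms2, 0.36 for Tfrc, 0.34 for Nrp1 and 0.34 for Golga5. Smaller ones were 0.30 for Stmn2, 0.29 for Manf, 0.25 for Arf4, 0.25 for Copa, 0.25 for Insm1, 0.23 for Copg1 and 0.22 for Gap43. Least were 0.19 for Arcn1, 0.17 for Cdkn1a, 0.17 for Myc, 0.16 for Cyth3 and 0.15 for Sv2c.

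Ccnd2 had no count with shArf1-1 and 3, 0 and 5 counts with shArf1-2, so its value of -4.40 rests on single reads.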

How the results depend on the processing

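The number of genes changed with shArf1-1 ran from 7663 to 8785 over the other scalings, filters and methods, and from 7894 to 8334 with 1 library left out. The number changed at least 2-fold was 1991, with 1223 when at least 10 counts were required in every library and 801 with limma on log2(FPKM + 1), and ran from 1988 to 2108 with 1 library left out. Arf1 stayed between -1.42 and -1.33 throughout. The number of genes differing between the hairpins was 1798, and ran from 1159 without shArf1-1 replicate 1 to 1977 without shArf1-1 replicate 2, with 1194 without shArf1-2 replicate 1.

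Among 181 named genes, 2638 of 2692 values kept the direction and the call, 39 lost the call, 7 gained it and 8 turned in direction. All 8 belong to 3 genes that are short of the threshold. Arf3 was at -0.05, and at 0.01 with total count scaling, 0.00 with limma on log2(FPKM + 1) and 0.01 on log2(FPKM + 0.1). Snap25 was at -0.01, and at 0.05 with total count scaling and 0.05 on both log2 FPKM scales. Leaving out 1 library put Snap25 between -0.04 and 0.03. Th was at 0.16 and ran from -0.06 to 0.42 with 1 library left out. Of 930 values of counts in the gene lists, 912 stayed within 1.5 times.

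A block for the replicate number gave 8431 changed genes, 1995 changed at least 2-fold, 1809 differing between hairpins, and -1.39 for Arf1. The deviations of libraries with the same number correlated between -0.0822 and 0.0941. Whether libraries with the same number share a culture or an infection is not given by the labels and was not tested. Of the named genes the block ended the call of mt-Nd4 and added that of Mki67.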

Other observations

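The data come from 1 cell line with 3 libraries per group, and the labels give neither the time from infection to harvest nor whether the groups were cultured in parallel. The data used here hold RNA levels only, with no measure of protein, lipid or cell number. Macrophage transcripts were abundant only in the shlucif libraries. Their part in the falls of lysosomal, autophagy, lipid droplet, adhesion, interferon and MHC class I genes was not tested.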
